A study of Mus musculus with 6 samples.

Results

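Subcutaneous and epididymal white fat of male mice were compared on 4 Affymetrix expression arrays, those titled SubQ and Epi, out of 6 in the series. The 2 brown fat arrays were left out of the comparison and served only, together with the others, to choose each gene's probe set, to filter out low genes and to estimate the spread in the test. One array of each white depot came from mice with intact Kdm4b (WT) and one from whole-body Kdm4b knockout mice (KO). The knockout arrays therefore share the loss of this histone demethylase in both depots. The mice, all 2 months of age, lived at room temperature, ate chow and had been fasted for 6 hours at sampling. The sources used here do not give the strain, the part of the subcutaneous layer that was taken, the number of mice behind an array or whether both depots were taken from the same animals. With 1 array per depot and genotype, the difference between depots is given separately for WT and KO, and the agreement of these 2 values is the only replication.

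White fat depots are not interchangeable. Epididymal fat lies in the abdominal cavity and is covered by mesothelium, the flat epithelium that lines body cavities, whereas subcutaneous fat lies under the skin, has no such cover and surrounds lymph nodes, nerves and thin muscle sheets. Adipocytes and their precursors keep a record of body position in their homeobox and T-box transcription factors, so depots of the same animal differ in these regulators even where the genes of lipid storage are shared.

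Signals are linear probe set intensities, and each gene was read from its brightest probe set. Signals under 63 were raised to that floor before the log2 scale was taken, and where the dimmer depot had an array not above the floor, the fold is a lower bound, written as at least. Of 18193 named genes, 14311 were above the floor on at least 1 of the 4 white fat arrays, and 13239 were above it on at least 3 of the 6 arrays and entered limma. In limma with Benjamini-Hochberg adjustment over these 13239 genes and a threshold of 0.05, 517 genes (3.91%) were higher and 153 (1.16%) lower in subcutaneous fat. By size alone, a difference of 2-fold or more in both genotypes was seen in 519 of 14311 genes (3.63%) that were higher and 137 (0.957%) that were lower in subcutaneous fat. Genes present in 1 white depot and absent elsewhere do not enter this test, and their levels are given without one. An alternative filter, above the floor on at least 2 of the 4 white fat arrays, tested 13301 genes and called 610 (4.59%) higher and 188 (1.41%) lower, but it admits such genes only through the depot where they are high, so that their outcome is largely fixed. Msln, Wt1 and Tbx15, floored on both arrays of 1 white depot, entered the main test only through the other depot and brown fat. Raising both signals to the floor makes them equal, so p-values of genes like these are partly set by the floor and the filter. The limma p-values treat the genotypes as replicates of the depot difference and do not measure the spread between mice.

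The arrays limit these counts in a few ways. Without the epididymal WT array limma called 73 genes higher and 10 lower, and without the epididymal KO array 65 and 13, while without the subcutaneous WT or KO array it called 401 and 78 or 311 and 115. All arrays had been scaled to the same trimmed mean, but the median signal was 97.5 and 88.8 on the epididymal arrays and 112.0 and 124.2 on the subcutaneous ones. Centring each array on its median shifted the median log2 difference of all genes to -0.20 in WT and -0.41 in KO, and it turned the share of higher genes among the calls from 77.2% to 28.0%, against 62.1% after quantile normalization. Of the 108 named genes that passed, 106 could be recomputed under each of these scalings, and 0 of them changed direction. As these genes were chosen for passing, a change of direction was unlikely, and the count does not support their calls. Kdm4b itself gave signals of 227 and 188 on the epididymal WT and KO arrays and 272 and 157 on the subcutaneous WT and KO arrays. Its signal was lower on the KO than on the WT array of each depot but did not reach the floor, and the sources used here do not give the deleted part of the gene, so this probe set is a weak check of the labels.

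**Figure D1:**
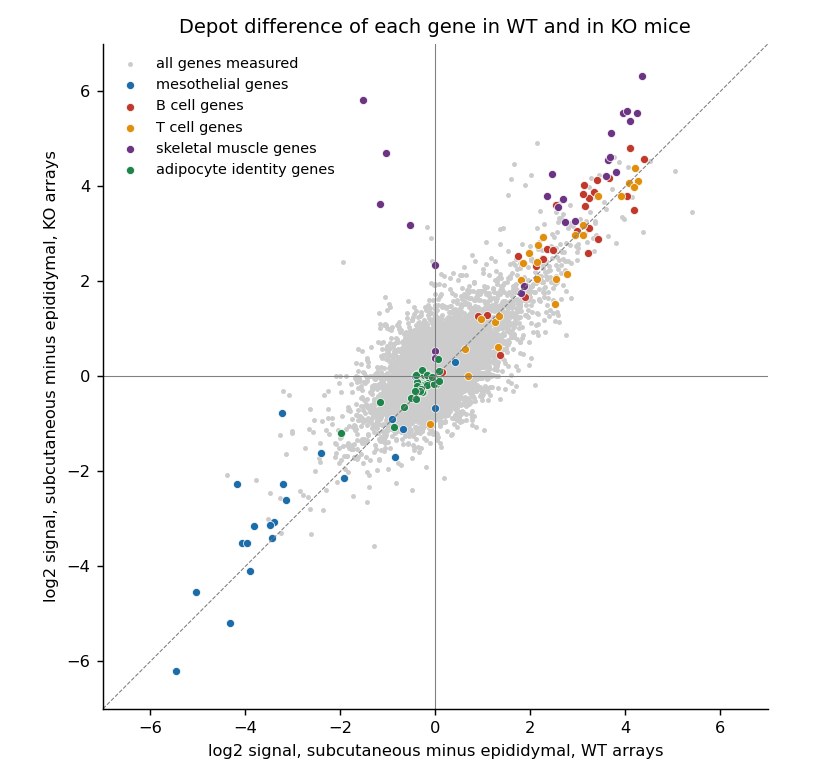
Depot difference of every measured gene, as log2 subcutaneous minus epididymal signal, in WT (x axis) against KO arrays (y axis); grey points are the 14311 measured genes, coloured points are members of 5 gene lists, and the dashed line marks equal differences. Mesothelial genes lie at the lower left, B and T cell genes at the upper right, adipocyte identity genes near the origin, and 4 skeletal muscle genes lie at the upper left.

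Among the lists, that of mesothelium had the most genes called lower in subcutaneous fat. Of 24 mesothelial genes listed, 22 were above the floor on a white fat array and 17 were tested; 11 were lower in subcutaneous fat and 0 higher, against the 1.16% of all genes called lower. The median log2 difference of the 22 genes was -3.32 in WT and -2.44 in KO, where that of all measured genes was -0.00 and 0.04. Their summed signals were 31236 and 28263 in epididymal and 5860 and 5578 in subcutaneous fat.

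Upk3b, a uroplakin that marks mesothelial cells, gave signals of 4839 and 4651 on the epididymal WT and KO arrays and 110.2 and 4.40 on the subcutaneous WT and KO arrays. Both epididymal arrays were far above both subcutaneous ones, of which the KO array was under the floor. The difference was at least 56.9-fold, or -5.83 ± 0.53 (SD, n = 2 genotypes) on the log2 scale with limma adjusted p = 0.00296. Since the floor sets the KO difference, this SD does not measure the spread between genotypes. Msln, which encodes the surface protein mesothelin, had signals of 947 and 1077 on the epididymal WT and KO arrays and 37.6 and 11.7 on the subcutaneous WT and KO arrays. It was under the floor on both subcutaneous arrays and at least 16.03-fold higher in epididymal fat (limma adjusted p = 0.00319, partly set by the floor). Slpi, a secreted inhibitor of neutrophil proteases, was the brightest of the group, with signals of 6381 and 7072 in epididymal and 318 and 192 in subcutaneous fat. Its 27.2-fold difference passed the test (limma adjusted p = 0.00579), and the depots did not overlap.

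The other members that passed were membrane, secreted and cytoskeletal genes. Lrrn4, Nkain4 and the neuronal and mesothelial membrane glycoprotein gene Gpm6a were 13.8-fold, at least 13.4-fold and 10.7-fold higher in epididymal fat. Rspo1, a secreted amplifier of Wnt signalling, was 9.93-fold higher, and Aldh1a2, which makes retinoic acid, 4.10-fold. Among the simple-epithelium keratins, Krt19 (6.64-fold) and Krt8 (at least 9.35-fold) passed the test, and Krt7 and Krt18 did not. Krt18 differed by -3.24 in WT and -0.76 in KO on the log2 scale, since its signal was 66.0 on the subcutaneous WT and 211 on the subcutaneous KO array. Cldn15 and Ezr, which many epithelia express, had log2 differences of -0.21 and 0.36 and did not pass.

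Upk1b and Muc16, a uroplakin and a large surface mucin, were measured in epididymal fat alone and so did not enter the test. Upk1b gave signals of 2081 and 1473 in epididymal and 47.1 and 2.85 in subcutaneous fat, at least 27.8-fold apart, and Muc16 was at least 9.43-fold apart. Without the epididymal WT array 7 mesothelial genes were still called lower by limma, and 7 without the epididymal KO array. As in any bulk sample, fewer cells of a type and less RNA per cell cannot be told apart here.

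**Figure D2:**
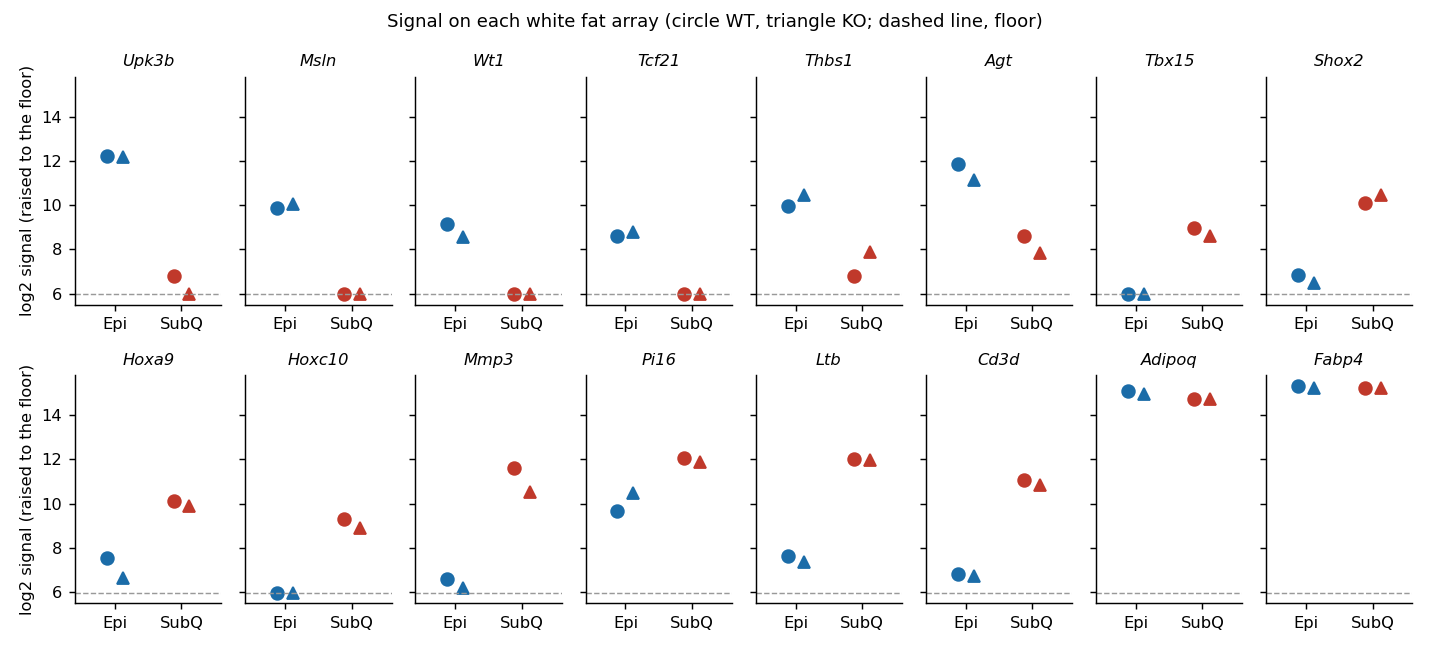
Log2 signal of 16 genes on each white fat array (blue, epididymal; red, subcutaneous; circles WT, triangles KO), with signals under 63 drawn at the floor, the dashed line. The depots do not overlap for the mesothelial, positional, matrix and lymphoid genes shown, whereas Adipoq and Fabp4 lie at nearly the same height on all 4 arrays.

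Positional regulators separated the depots in both directions. Besides the Hox genes, 36 of 49 listed developmental transcription factors were measured and 27 tested, of which 4 were higher and 2 lower in subcutaneous fat; their median log2 difference was 0.02 in WT and 0.30 in KO. On the epididymal side, Wt1, a zinc-finger factor of visceral fat precursors and mesothelium that stands on both lists, had signals of 559.8 and 380.2 on the epididymal WT and KO arrays and 12.6 and 22.03 on the subcutaneous WT and KO arrays. Among the white fat arrays it was above the floor only in epididymal fat, at least 7.32-fold higher there (limma adjusted p = 0.00513, partly set by the floor). Tcf21, a basic helix-loop-helix factor of visceral mesenchyme, gave 395 and 436 in epididymal and 53.2 and 53.0 in subcutaneous fat and was at least 6.58-fold apart. Bnc1, a zinc-finger gene of mesothelium and germ cells, differed by at least 11.2-fold in the same direction.

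Forkhead gene Foxp2 was 2.13-fold higher in epididymal fat (limma adjusted p = 0.0312), although 1 of its 4 probe sets above the floor went the other way. Gata6 and Osr1, factors of lateral mesoderm, were 1.85-fold and 1.66-fold higher there without passing limma (adjusted p = 0.0739 and 0.0596). Isl1, a LIM-homeobox factor, was above the floor on both epididymal arrays, at 301 and 101, and on neither subcutaneous array, and was not tested.

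On the subcutaneous side, Tbx15, a T-box factor of the trunk mesenchyme, gave signals of 31.9 and 53.8 on the epididymal WT and KO arrays and 496 and 387 on the subcutaneous WT and KO arrays. Both epididymal arrays were under the floor, and Tbx15 was at least 6.95-fold higher in subcutaneous fat (limma adjusted p = 0.00513, partly set by the floor). Shox2, a homeobox factor of proximal limb skeleton, had signals of 116 and 89.98 in epididymal and 1095 and 1429 in subcutaneous fat, a difference of 12.2-fold or 3.61 ± 0.53 (SD, n = 2 genotypes) on the log2 scale (limma adjusted p = 0.0247). Lhx8, a LIM-homeobox gene, reached 319 and 179 on the subcutaneous arrays and was under the floor on both epididymal ones. Prrx1, a homeobox gene of limb and body wall mesenchyme, was present in both depots and 2.19-fold higher in subcutaneous fat (1.12 in WT and 1.13 in KO on the log2 scale, limma adjusted p = 0.0196).

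Several positional genes known from other comparisons of fat depots did not pass the test. Engrailed gene En1 was above the floor on 0 of the 4 arrays. Nr2f1 and Irx3 had mean log2 differences of -0.52 and 0.17 (limma adjusted p = 0.166 and 0.691), and Emx2 and Irx2 were at least 2.36-fold and at least 2.51-fold higher in subcutaneous fat with adjusted p = 0.0707 and 0.0637 in limma. The depots did not overlap for Nr2f1, Emx2 and Irx2, which says little with 2 arrays per depot. With an intensity trend in limma Emx2 and Irx2 passed (adjusted p = 0.0461 and 0.0365). That setting called more genes throughout, 762 higher and 530 lower, and is given here for these 2 genes only. Without either epididymal array, limma called 0 of the 4 higher genes and 1 lower gene of this list.

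Hox genes were called in both directions. Hox proteins set identity along the body axis, with low paralogue numbers expressed towards the head and high numbers towards the tail. Of 39 Hox genes listed, 26 were measured and 20 tested. In subcutaneous fat 1 was higher and 3 were lower, against 3.91% of all genes called higher and 1.16% lower. The median log2 difference was -0.15 in WT and 0.18 in KO. Those lower in subcutaneous fat were Hoxa5 (-1.18 in WT and -0.99 in KO on the log2 scale, limma adjusted p = 0.047), Hoxb5 (-1.17 in WT and -0.87 in KO, adjusted p = 0.0317) and Hoxc4 (-1.41 in WT and -1.22 in KO, adjusted p = 0.0179), all of paralogue groups 4 and 5. Hoxb4, also of group 4, had positive differences (0.45 in WT and 0.86 in KO on the log2 scale) and did not pass. Hoxc4 gave 1166 and 766 in epididymal and 439 and 328 in subcutaneous fat, and its depots did not overlap.

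The gene that was higher was Hoxa9, with signals of 184 and 100.02 on the epididymal WT and KO arrays and 1095 and 951 on the subcutaneous WT and KO arrays. It was 7.52-fold higher in subcutaneous fat (limma adjusted p = 0.00941). Its cluster neighbour Hoxa10 and the posterior gene Hoxc10 were under the floor in epididymal fat. Hoxa10 gave 31.2 and 25.8 in epididymal and 256 and 344 in subcutaneous fat and was at least 4.71-fold apart. Hoxc10 gave 45.9 and 30.6 in epididymal and 625 and 473 in subcutaneous fat and was at least 8.63-fold apart. Neither entered the test.

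No other measured member of groups 8 and 9 passed. Hoxc8, the brightest Hox gene, gave 6092 and 5344 in epididymal and 4501 and 3597 in subcutaneous fat, with a log2 difference of -0.50 ± 0.10 (SD, n = 2 genotypes) and a limma adjusted p of 0.217. Hoxc9 was 1.59-fold higher in subcutaneous fat in the mean (limma adjusted p = 0.0768), and Hoxd8 and Hoxd9 had mean log2 differences of -0.60 and 0.33. Hoxa4 and Hoxb9 were above the floor on the epididymal WT array alone among the white fat arrays. Under median centring 1 Hox gene was called higher and 7 were called lower. Leaving out the epididymal WT array kept 1 higher and 0 lower Hox calls in limma, and leaving out the epididymal KO array kept 0 of either.

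**Figure D3:**
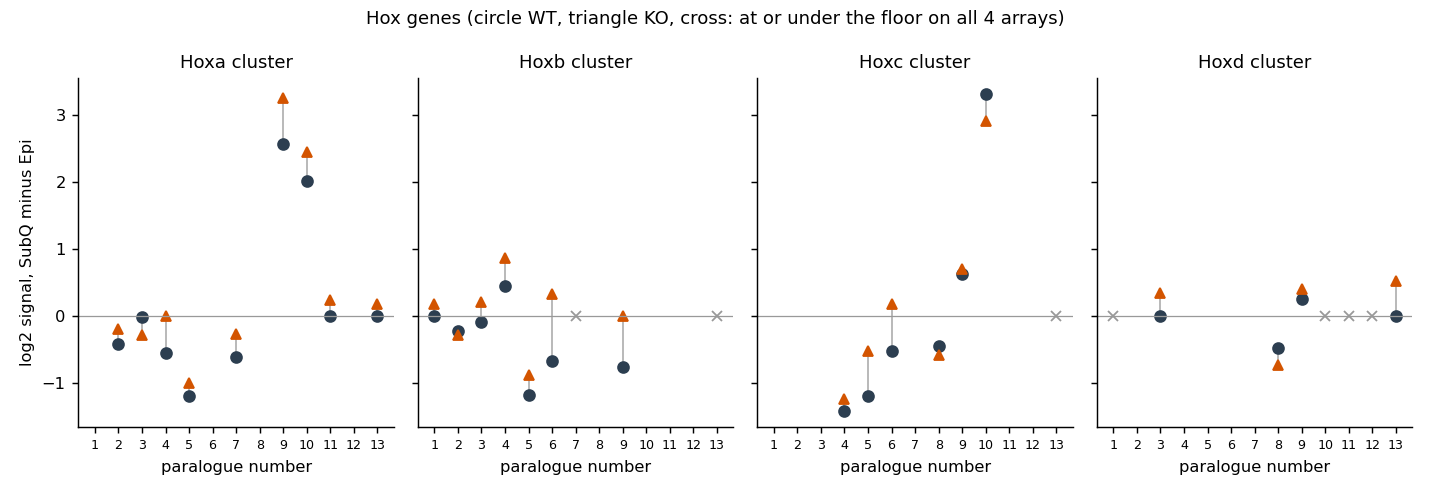
Log2 subcutaneous minus epididymal signal of Hox genes (y axis) by paralogue number (x axis) in the 4 clusters, with WT as circles and KO as triangles joined by a line and genes above the floor on none of the 4 arrays as crosses at 0. Hoxa9, Hoxa10 and Hoxc10 stand above 2 in both genotypes, and the lowest values belong to groups 4 and 5.

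Among the lists, those of lymphocytes had the most genes called higher in subcutaneous fat. Of 28 B cell genes listed, 26 were measured and 24 tested, and 20 were higher and 0 lower, against 3.91% of all genes called higher. All 26 were higher in both genotypes, with a median log2 difference of 3.11 in WT and 3.10 in KO. Of 30 T cell genes, 26 were measured and 20 tested, of which 17 were higher and 0 lower, with a median of 2.21 in WT and 2.39 in KO. The summed signal of the B cell genes was 18582 and 20634 in epididymal and 55004 and 56130 in subcutaneous fat, and that of the T cell genes 4478 and 3931 in epididymal and 23359 and 21243 in subcutaneous fat.

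Ltb, which encodes lymphotoxin beta, the cytokine that lymphocytes use to organise lymph nodes, gave signals of 199 and 167 on the epididymal WT and KO arrays and 4177 and 3996 on the subcutaneous WT and KO arrays. Both subcutaneous arrays lay far above both epididymal ones, by 22.4-fold or 4.49 ± 0.14 (SD, n = 2 genotypes) on the log2 scale (limma adjusted p = 0.00282). H2-Ob, a modulator of antigen loading in B cells, was 21.9-fold higher. The B cell surface gene Ms4a1, which encodes CD20, had signals of 409 and 268 in epididymal and 5199 and 4862 in subcutaneous fat, 15.2-fold apart. Receptor genes of resting follicular B cells were also among the called: the complement receptor gene Cr2 was at least 15.1-fold higher, the IgE receptor gene Fcer2a at least 14.4-fold, and Cxcr5, which guides B cells to follicles, 5.93-fold. All these differences passed limma, with adjusted p between 0.00282 and 0.00594.

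Ighm, the immunoglobulin mu chain, did not follow the other B cell genes. Its signals were 12786 and 15521 on the epididymal WT and KO arrays and 14028 and 16512 on the subcutaneous WT and KO arrays. They overlapped between the depots, and the log2 difference was 0.11 ± 0.03 (SD, n = 2 genotypes) with a limma adjusted p of 0.767. A heavy-chain variable segment, Ighv14-2, in contrast gave 195 and 168 in epididymal and 4434 and 3901 in subcutaneous fat and was 23.0-fold higher in subcutaneous fat (limma adjusted p = 0.00282). Immunoglobulin segments resemble each other, so this probe set may read several of them.

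Cd3d and Cd3g, chains of the receptor's signalling complex, were 18.3-fold and at least 16.8-fold higher in subcutaneous fat (limma adjusted p = 0.00282 and 0.00296). Cd3d gave 113 and 106 in epididymal and 2174 and 1841 in subcutaneous fat. The receptor beta segment Trbv1 was 18.3-fold higher, Ms4a4b 19.6-fold, and Ccl5, a chemokine of activated T and natural killer cells, 15.5-fold. Lef1, a transcription factor of T cells, was at least 8.86-fold higher, Il7r, the receptor for interleukin 7, 6.04-fold, and the homing receptor gene Ccr7, under the floor in epididymal fat at 31.2 and 36.0, reached 941 and 876 in subcutaneous fat. Cd8b1 differed by at least 17.0-fold, whereas Cd8a had a log2 difference of 0.60 and Zap70 of -0.56 (limma adjusted p = 0.113 and 0.272).

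Genes of lymph node structure were measured beside these. Glycam1, the mucin of high endothelial venules through which lymphocytes enter lymph nodes, gave signals of 7.14 and 5.81 on the epididymal WT and KO arrays and 2687 and 698 on the subcutaneous WT and KO arrays. It was far under the floor in epididymal fat and at least 21.7-fold brighter on the subcutaneous arrays. The follicle chemokine gene Cxcl13 was 5.19-fold higher and Bst1 2.32-fold higher (limma adjusted p = 0.0115 and 0.0159), while Chst4, a sulfotransferase of these venules, was at least 2.56-fold lower (adjusted p = 0.0158 in the same limma fit). Of 14 such genes, 11 were measured and 8 tested, with 2 higher and 1 lower, and their median was 0.79 in WT and 0.50 in KO. Without the epididymal WT array Cxcl13 alone of these 3 kept its call, and without the epididymal KO array none did (limma adjusted p between 0.0593 and 0.13). The sources used here do not say whether a lymph node was part of the sampled subcutaneous fat, and its part in the lymphoid differences was not tested.

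Plasma cell genes were less uniform. All 10 were measured and tested, 0 passed limma in either direction (limma over all 13239 genes gave 2859 at an unadjusted p under 0.05), and the median was 0.52 in WT and 1.09 in KO. Under median centring 4 of the 10 were called higher, and after quantile normalization 0. Jchain, which links immunoglobulin polymers, had signals of 1579.8 and 364 in epididymal and 4733 and 6494 in subcutaneous fat. Both subcutaneous arrays were brighter, but the fold was 2.996 in WT and 17.9 in KO. Without the epididymal WT array 15 B cell and 8 T cell genes were called higher by limma, and without the epididymal KO array 11 and 7.

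Macrophage genes were called about as often as all genes. All 28 listed genes were measured and tested, with 1 higher and 0 lower in subcutaneous fat, against 1 and 4 under median centring. Of all genes tested, 3.91% were called higher and 1.16% lower, so the main counts are near the share of all genes. The median was 0.39 in WT and -0.37 in KO, and 16 of the 28 differed in opposite directions in the genotypes, a contrast between genotypes that was not tested. The share of all measured genes that did so was not taken, so the count cannot be read as a trait of macrophage genes. Csf1r, the receptor for macrophage growth factor, gave 9291 and 9725 in epididymal and 11992 and 8421 in subcutaneous fat, and the lysozyme gene Lyz2 had a mean log2 difference of -0.01. The called gene was Timd4, a receptor for dying cells on resident macrophages. It gave signals of 219.5 and 182 on the epididymal WT and KO arrays and 1250.4 and 1125 on the subcutaneous WT and KO arrays. It was 5.93-fold higher in subcutaneous fat (limma adjusted p = 0.00699), and this call was lost without either epididymal array (adjusted p = 0.061 and 0.0682 in limma).

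Matrix proteases and inhibitors were called in both directions, whereas all called collagens, proteoglycans and matrix glycoproteins were lower in subcutaneous fat. Of 30 matrix proteases and inhibitors listed, 23 were measured and tested, with 4 higher and 2 lower in subcutaneous fat. Of all genes tested, 3.91% were called higher and 1.16% lower. Mmp3, which encodes stromelysin 1, a protease that cuts proteoglycans and activates other metalloproteinases, gave signals of 95.6 and 73.3 on the epididymal WT and KO arrays and 3139.5 and 1465 on the subcutaneous WT and KO arrays. Both subcutaneous arrays were far brighter, by 25.6-fold or 4.68 ± 0.51 (SD, n = 2 genotypes) on the log2 scale (limma adjusted p = 0.00296). The call was kept without either epididymal array (limma adjusted p = 0.0417 and 0.0426).

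Mmp12, which encodes the macrophage elastase and lies on the same chromosome, differed the other way, with signals of 1013 and 1616 on the epididymal WT and KO arrays and 303 and 281 on the subcutaneous WT and KO arrays. It was 4.38-fold higher in epididymal fat (limma adjusted p = 0.0117), without overlap. Sequences upstream of these genes are shown because both hold a match to the AP-1 motif TGANTCA, the site for Fos and Jun dimers, while their depot differences are opposite. They are the 250 bases before the start, from RefSeq on GRCm38.p6, plus strand, chr9:7445572-7445821 for Mmp3 and chr9:7347124-7347373 for Mmp12; Mmp12 has 2 annotated starts, and the one with a match is shown. Capitals mark AP-1 matches and, in Mmp3, the motif TATAAA.
Mmp3: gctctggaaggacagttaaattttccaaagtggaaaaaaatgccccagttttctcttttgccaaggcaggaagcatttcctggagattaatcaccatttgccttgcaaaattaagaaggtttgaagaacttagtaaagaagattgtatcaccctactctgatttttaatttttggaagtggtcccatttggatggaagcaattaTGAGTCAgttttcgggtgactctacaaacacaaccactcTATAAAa
Mmp12: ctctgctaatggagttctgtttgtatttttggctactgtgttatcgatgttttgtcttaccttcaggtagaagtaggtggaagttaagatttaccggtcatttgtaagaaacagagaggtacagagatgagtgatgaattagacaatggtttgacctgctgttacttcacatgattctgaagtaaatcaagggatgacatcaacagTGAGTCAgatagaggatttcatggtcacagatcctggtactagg
The AP-1 match began 46 bases before the start in Mmp3 and 44 bases before it in Mmp12. Searched on both strands, TGANTCA was found in 6.75% and TATAAA in 12.4% of 32851 upstream windows of this length. Of the 19 genes of the protease list with an upstream window, 4 held the AP-1 motif in any window, Mmp3, Mmp10, Mmp12 and Mmp13. Counted by gene in the same way, the share was 7.82% of 27025 genes. Neither Mmp10 nor Mmp13 was above the floor on any of the 4 arrays. A match describes the sequence and does not show a bound site.

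The other called proteases were the gelatinase genes Mmp2 (2.81-fold) and Mmp9 (2.69-fold) and the membrane protease gene Mmp14, an activator of Mmp2 (1.96-fold), all higher in subcutaneous fat with limma adjusted p of 0.0115, 0.0366 and 0.0427. Mmp2 gave 1353 and 807 in epididymal and 4160.5 and 2068 in subcutaneous fat. Timp4, an inhibitor of these enzymes made by adipocytes, gave 14337 and 16327 in epididymal and 7231 and 8063 in subcutaneous fat and was 2.00-fold higher in epididymal fat (limma adjusted p = 0.0247). The list as a whole had a median of -0.06 in WT and -0.21 in KO. Without either epididymal array 1 gene of the list was called higher and 0 lower.

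Of 25 collagen genes, all were measured and 23 tested, with 0 higher and 3 lower in subcutaneous fat, against 1.16% of all genes called lower. The median was 0.13 in WT and -0.30 in KO. The basement membrane chains Col4a6 and Col4a5 were at least 3.14-fold and 2.23-fold higher in epididymal fat, and Col8a1, a short-chain network collagen, 1.78-fold (limma adjusted p = 0.013, 0.0449 and 0.0466). Col1a1, the main chain of fibrillar collagen, was 2.32-fold higher in subcutaneous fat without passing (limma adjusted p = 0.0603). Col27a1, singled out after its values were seen, lay at the threshold on the same side (limma adjusted p = 0.051), and 1 collagen was called higher after quantile normalization. Without either epididymal array limma called 0 collagens.

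Of 49 proteoglycans and matrix glycoproteins, 42 were measured and 39 tested, with 0 higher and 5 lower, against 1.16% of all genes called lower. The median was -0.05 in WT and -0.31 in KO. Thbs1, which encodes the matricellular protein thrombospondin 1, an activator of TGF-beta, had signals of 1003 and 1427 on the epididymal WT and KO arrays and 113 and 239 on the subcutaneous WT and KO arrays. It was 7.28-fold higher in epididymal fat (limma adjusted p = 0.00948). Fmod, a small proteoglycan that binds collagen fibrils, gave 4827 and 3457 in epididymal and 669 and 647 in subcutaneous fat, 6.21-fold apart (limma adjusted p = 0.00645). Cilp was 4.43-fold and the glypican genes Gpc3 and Gpc4, which anchor growth factors at the cell surface, 2.12-fold and 1.99-fold higher in epididymal fat. Left without the epididymal WT array, limma called 0 of these genes, and without the epididymal KO array 1. Median centring raised the lower calls on this list to 12.

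Genes of adipocyte precursors were split. Of 30 listed, 28 were measured and tested, with 5 higher and 2 lower in subcutaneous fat; the median was 0.44 in WT and 0.08 in KO, and their median over genotypes turned from 0.33 to -0.06 under median centring. Pi16, a marker of the stem-like precursors of connective tissue, had signals of 802 and 1436 on the epididymal WT and KO arrays and 4304 and 3780.2 on the subcutaneous WT and KO arrays. It was 3.76-fold higher in subcutaneous fat (limma adjusted p = 0.0296). The growth factor genes Fgf10 and Wnt2 were 2.35-fold and at least 2.56-fold higher (limma adjusted p = 0.0352 and 0.0215), as were the adhesion receptor gene Icam1 and the surface protease gene Fap, by 1.97-fold and 1.96-fold. Bmp4, a signal that commits precursors to fat, and the thrombin receptor gene Thbd were 2.20-fold and 2.34-fold higher in epididymal fat (limma adjusted p = 0.047 and 0.0186). The general precursor receptor genes Pdgfra and Pdgfrb had mean log2 differences of 0.41 and 0.10 and did not pass. Without either epididymal array 0 genes of this list were called by limma.

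Genes of the adipocyte itself had small differences, mostly towards lower signal in subcutaneous fat. All 32 measured adipocyte identity genes were tested and 0 passed limma in either direction. Of all genes, 3.91% were called higher and 1.16% lower, and with shares this low 0 of 32 says little. In both genotypes 21 were lower and 2 higher in subcutaneous fat, and the share of all measured genes that did so was not taken. The median was -0.27 in WT and -0.17 in KO, and only Mest was at least 2-fold apart in both genotypes. Adipoq, the hormone adiponectin, gave signals of 34805 and 31813 on the epididymal WT and KO arrays and 27392 and 26704 on the subcutaneous WT and KO arrays, and Fabp4, the fatty acid carrier of fat cells, 40913 and 37958 in epididymal and 38171 and 37638 in subcutaneous fat. Their log2 differences were -0.30 ± 0.07 (SD, n = 2 genotypes) and -0.06 ± 0.06 (SD, n = 2 genotypes). Pparg, the master regulator of adipocyte differentiation, and Cd36, a fatty acid transporter, differed by -0.29 and -0.08 on the log2 scale in the mean. Median centring, which moved the median of all genes down, called 6 of the 32 lower in subcutaneous fat.

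Leptin showed the depot and genotype side by side. Lep gave signals of 6063 and 14421 on the epididymal WT and KO arrays and 3858 and 9178 on the subcutaneous WT and KO arrays. Each epididymal array was brighter than the subcutaneous array of its genotype, by -0.65 in WT and -0.65 in KO on the log2 scale, but the depots overlapped because both KO arrays were brighter than both WT arrays (limma adjusted p for the depot = 0.0955). Mest, an imprinted gene of expanding fat, gave 2642 and 6314 in epididymal and 668 and 2769 in subcutaneous fat, with log2 differences of -1.98 in WT and -1.19 in KO (limma adjusted p = 0.108). Of 24 lipid synthesis genes, all were tested and 0 passed, with a median of -0.21 in WT and -0.07 in KO. In both genotypes 15 of them were lower and 3 higher in subcutaneous fat, and 5 were called lower under median centring.

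Of 30 thermogenic genes, 27 were measured and 25 tested, with 3 higher and 2 lower in subcutaneous fat and a median of -0.25 in WT and 0.00 in KO. The transcription factor genes Prdm16 and Tbx1 and the receptor gene Tnfrsf9, which have been used as markers of beige fat, were 2.17-fold, at least 3.16-fold and at least 3.06-fold higher in subcutaneous fat (limma adjusted p = 0.0272, 0.0192 and 0.0389). Ucp1, the uncoupling protein that produces heat, went the other way, at -1.18 in WT and -1.74 in KO on the log2 scale (limma adjusted p = 0.0413). Slc27a2, a fatty acid transporter and acyl-CoA synthetase, was 4.12-fold higher in epididymal fat (limma adjusted p = 0.029). Tmem26, another beige marker, was above the floor only in subcutaneous fat and at least 3.02-fold apart, and was not tested. Lymphocyte and muscle genes were also brighter in subcutaneous fat, and the cell source of these beige marker signals was not tested. Without either epididymal array 0 genes of this list were called by limma.

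**Figure D4:**
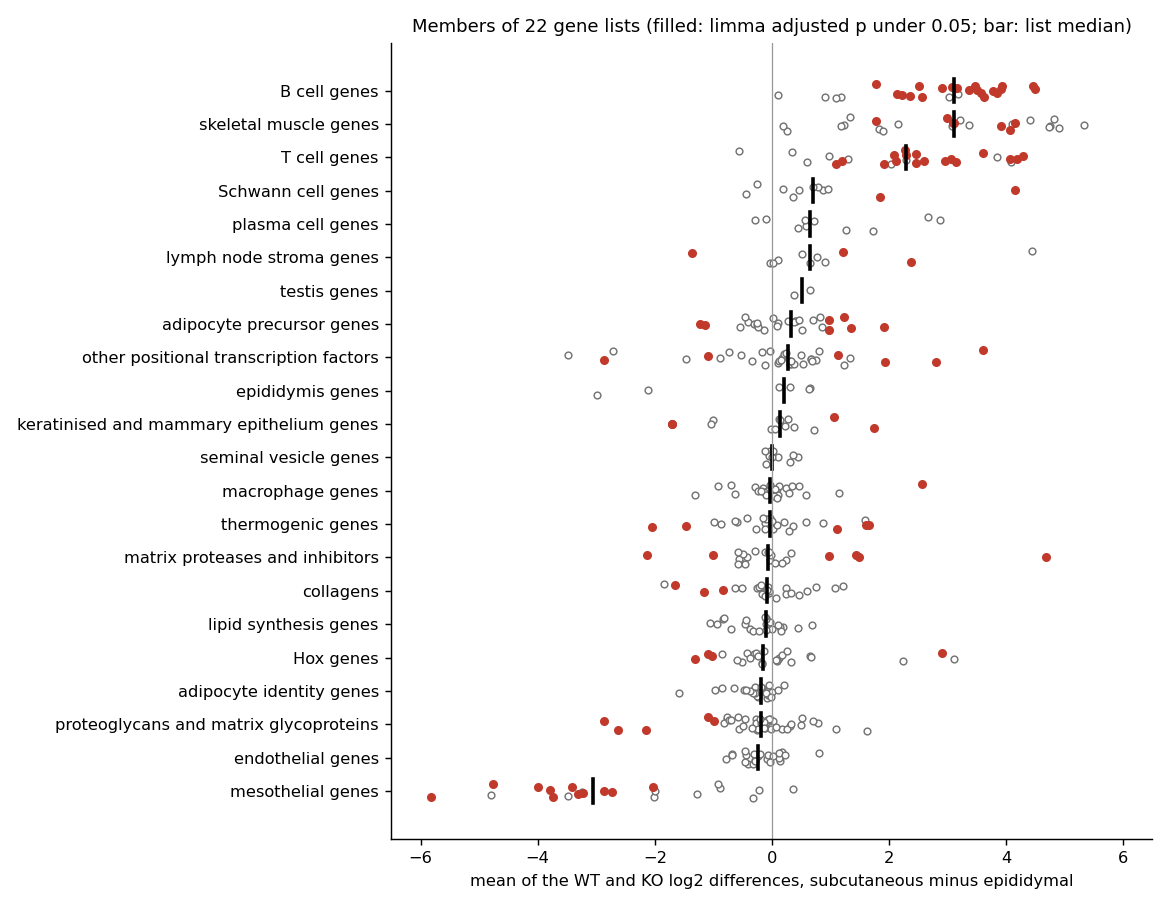
Mean of the WT and KO log2 differences (x axis, subcutaneous minus epididymal) for each measured member of 22 gene lists (rows, ordered by median), with filled points for genes at a limma adjusted p under 0.05, open points for others and black bars for list medians. B cell, skeletal muscle and T cell genes lie to the right, mesothelial genes to the left, and the adipocyte, collagen and endothelial lists are centred near 0.

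Among epididymal genes outside these lists, Agt, the precursor of the vessel-constricting peptide angiotensin, gave signals of 3719 and 2235 on the epididymal WT and KO arrays and 391 and 228 on the subcutaneous WT and KO arrays. It was 9.65-fold higher in epididymal fat (limma adjusted p = 0.00319). Slc39a8, a zinc and manganese transporter, was 7.88-fold higher with signals of 1824 and 2231 in epididymal and 295 and 222 in subcutaneous fat. The epithelial galectin gene Lgals7 was at least 9.63-fold and the iron-siderophore carrier gene Lcn2 at least 9.36-fold higher (limma adjusted p = 0.00327 and 0.0398). Lcn2 varied between genotypes, with a log2 difference of -4.38 in WT and -2.07 in KO. Without the epididymal KO array the calls of Slc39a8 and Lcn2 were lost (limma adjusted p = 0.053 and 0.0528), and without the epididymal WT array that of Lcn2 (limma adjusted p = 0.132).

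Skeletal muscle transcripts were brighter on the subcutaneous arrays. Of 25 listed, all were measured and 22 tested; 7 were higher and 0 lower, 18 were at least 2-fold higher in both genotypes, and the median was 2.69 in WT and 4.23 in KO. Their summed signal was 11612 and 7642 in epididymal and 90387 and 104078 in subcutaneous fat. The giant sarcomere protein gene Ttn was at least 17.7-fold and the myosin-binding protein gene Mybpc2 16.7-fold higher (limma adjusted p = 0.0225 and 0.0151), as was the Z-disc gene Myoz1, at 18.2-fold. The calls depended on single arrays, with 20 without the subcutaneous WT array and 0 without either epididymal array. Under median centring 18 genes of the muscle list were called higher. Several genes named above, Tbx15 among them, are also expressed in muscle, and the part of muscle in their differences was not tested.

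Myosin genes of single fibre types were measured beside these, and their difference between genotypes was not tested. Myh4, the myosin of the fastest fibres, gave 590.3 and 177 in epididymal and 11136 and 8318 in subcutaneous fat, and both subcutaneous arrays were brighter. Myh1, a myosin of fast fibres, gave 510.2 and 55.5 on the epididymal WT and KO arrays and 178 and 3577 on the subcutaneous WT and KO arrays, so that it was brightest on the subcutaneous KO array. Myh2, of fast oxidative fibres, and Mb, the oxygen store myoglobin, had the same order, with 141 and 20.8 in epididymal and 54.9 and 782 in subcutaneous fat for Myh2 and 167 and 56.5 in epididymal and 81.1 and 1637 in subcutaneous fat for Mb.

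Seminal vesicle genes were measured in both depots. All 10 that were measured were higher in subcutaneous fat of WT and lower in subcutaneous fat of KO mice, with a median of 0.80 in WT and -0.61 in KO; 0 passed limma, and their difference between genotypes was not tested. Their summed signal was 5751 and 4161 in epididymal and 10344 and 2347 in subcutaneous fat. Svs4 gave 1851 and 1562 in epididymal and 3774 and 718 in subcutaneous fat, highest on the subcutaneous WT and lowest on the subcutaneous KO array.

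**Figure D5:**
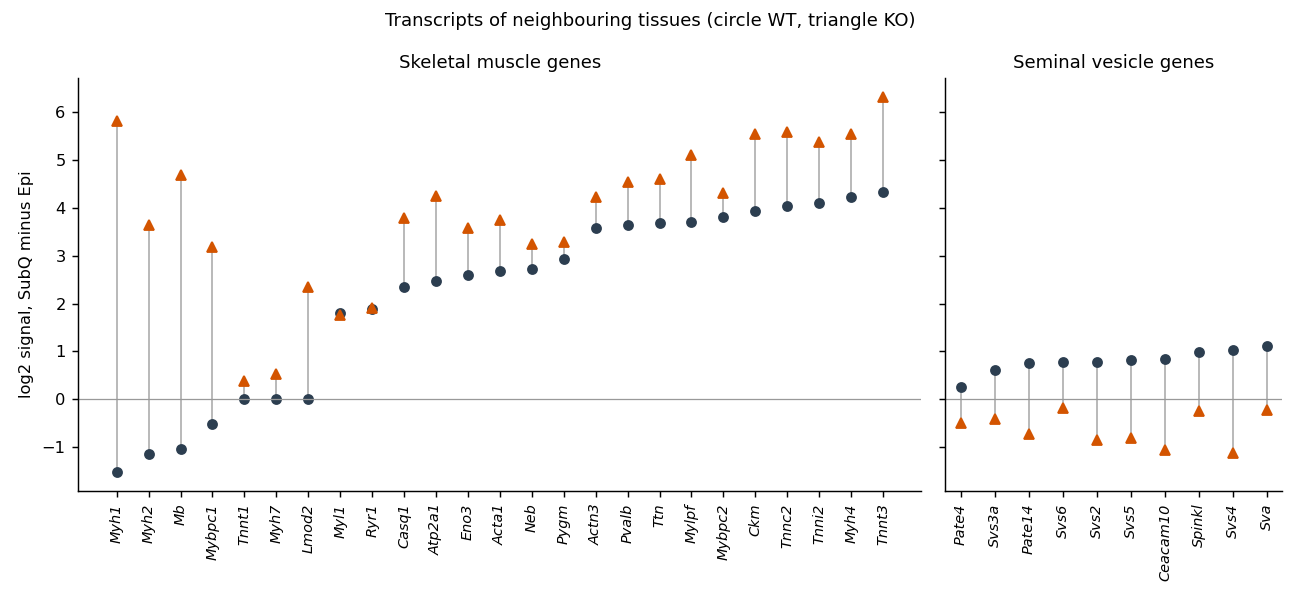
Log2 subcutaneous minus epididymal signal (y axis) of 25 skeletal muscle genes and 10 seminal vesicle genes (x axis, ordered by the WT value), with WT as circles and KO as triangles joined by a line. Myh1, Myh2, Mb and Mybpc1 lie below 0 in WT and above 3 in KO, and all 10 seminal vesicle genes lie above 0 in WT and below 0 in KO.

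Genes of other cells and tissues were also compared, and the source of their transcripts was not tested. Of 24 epididymis genes, 15 were on the array, and 9 of these were above the floor on none of the 4 white fat arrays. The other 6 were measured and 3 tested, with 0 called. Sult1e1, an oestrogen sulfotransferase, gave 3660.5 and 1985 in epididymal and 450.2 and 864 in subcutaneous fat, and Cuzd1 was under the floor in subcutaneous fat and at 869 and 287 in epididymal fat. Only 2 of 15 testis genes were above the floor on any white fat array, none above a signal of 131, and 0 passed the test in either direction. Of 24 genes of keratinised and mammary epithelium, 14 were measured and 9 tested, with 2 higher (Krtdap and Trp63) and 2 lower (Dsp and Perp) in subcutaneous fat, and a median of -0.03 in WT and 0.27 in KO. Without either epididymal array limma called 0 genes of this list.

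Nerve and vessel lists completed the comparison. Of 15 Schwann cell genes, 11 were measured and 9 tested, with 2 higher, 0 lower and a median of 0.73 in WT and 0.50 in KO. Mbp, the myelin basic protein, gave signals of 254 and 209 on the epididymal WT and KO arrays and 4803 and 3508 on the subcutaneous WT and KO arrays and was 17.8-fold higher in subcutaneous fat (limma adjusted p = 0.00282), and the Schwann precursor cadherin gene Cdh19 was at least 3.58-fold higher. Of the 8 Mbp probe sets above the floor 7 went the same way, and Mbp kept its call without either epididymal array (limma adjusted p = 0.0417 and 0.0426) while Cdh19 did not (adjusted p = 0.176 and 0.0744 in limma). Of 24 endothelial genes, 23 were measured and tested, 0 passed in either direction, and the median was -0.21 in WT and -0.20 in KO, while median centring called 5 of them lower.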

How the data were processed

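The deposited values were linear probe set intensity values of 6 arrays. MAS5 and Affymetrix Expression Console are named in the submitters' processing notes, with versions not given in the sources used here. The deposited intensity values had the same 2%-trimmed mean on every array, so differences in total RNA between cells are hidden, and MAS5 treats arrays singly, which leaves weak probe sets noisy. The genome build of the array design is not given either.

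Of 45037 non-control probe sets, 34945 had 1 gene symbol and were used (932 had several, 9160 none); 34741 were found in a RefSeq gene table, with 0 symbols updated. Each of 18193 genes was read from its brightest probe set by mean log2 signal after a floor of 63. limma 3.58.1 (R 4.3.3) was fitted to 6 arrays with depot and genotype as terms (2 residual degrees of freedom) for genes that 3 or more arrays showed above the floor, p-values were adjusted over all of them after Benjamini and Hochberg, and the fit was tested on simulated data. In the simulated data limma recovered 39% of 200 genes shifted by 1 on the log2 scale and 78% of 200 shifted by 2. It also called 7 genes without a shift. A gene that did not pass may therefore still differ. The simulated signals had normal noise and were not raised to the floor, and the spreads were shuffled among genes. Their rates do not describe genes at the floor. The number of arrays limits the precision, and the SD between probe sets of a gene was 0.33 in WT and 0.38 in KO on the log2 scale. Python 3.11.15, numpy 2.4.6, pandas 2.3.3 and matplotlib 3.10.9 were used for the rest.

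Genes named are the 4 markers Upk3b, Msln, Ltb and Mmp3, the 12 largest called differences per direction with a brighter depot of at least 126 and probe sets that go the same way, up to 8 members per direction of 22 gene lists, and set depot genes and genes of opposite direction in WT and KO. Members and lists were chosen with earlier results of these data known. Alternatives were other scalings, floors, filters, probe set rules, fold thresholds and fits, and leaving out each array.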

Additional observations from a re-analysis of the deposited data

Results flagged for a closer look

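A total of 14 genes differed at least 2-fold between the depots in opposite directions in WT and KO mice, 13 of them higher in subcutaneous fat of KO mice, and 6 met the conditions on signal, probe sets (which had to go the same way within each genotype) and symbol. With 1 array per depot and genotype the difference between genotypes was not tested for any of them. As log2 subcutaneous minus epididymal signal, Krtap12-1, a hair keratin-associated gene, was -1.95 in WT and 2.41 in KO. The muscle genes Myh1, Myh2 and Mb were -1.52 in WT and 5.83 in KO, -1.16 in WT and 3.63 in KO, and -1.05 in WT and 4.70 in KO. Svs4, a seminal vesicle secretion gene, was 1.03 in WT and -1.12 in KO, and Tlcd4, a membrane protein gene, -1.01 in WT and 1.39 in KO.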

How the results depend on the processing

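Of 108 named genes that passed limma, 0 changed direction where they could be recomputed, which was the case for 63 with the floor at the 60th percentile, 106 under quantile normalization, median centring and without probe sets that can cross-hybridise, 107 with the probe set brightest on the white fat arrays, and all under the other alternatives. Chosen for passing, these genes were unlikely to change direction, and the count does not support their calls. The 517 higher and 153 lower genes became 62 and 22 without a filter on low genes, and 51 and 7 with the floor at the 20th percentile. The lower genes became 94 in the fit of the 4 white fat arrays on depot only, 530 with an intensity trend, 254 after quantile normalization, 1299 after median centring and 336 with the floor at the 60th percentile. Leaving out each array in turn gave 65 to 401 higher and 10 to 115 lower genes. Of 108 named genes that passed, 40 remained without the epididymal WT array, 33 without the epididymal KO array, 82 without either subcutaneous array, 7 without the filter and 16 with the lower floor. The 519 and 137 genes at least 2-fold apart in both genotypes became 335 and 322 under median centring and 321 and 86 with the floor at the 60th percentile, and the lower ones 232 with the floor at the 20th. They became 1016 and 441 at 1.5-fold and 255 and 48 at 3-fold, and with 1 genotype left after leaving out an array 760 to 912 higher and 243 to 386 lower. Of the list medians, 14 of 22 moved by more than the SD between genotypes under median centring and 6 under quantile normalization. The mean in place of the median turned the sign for Hox genes, from -0.15 to 0.12, for matrix proteases, from -0.08 to 0.09, for epididymis genes, from 0.21 to -0.56, for keratinised epithelium, from 0.14 to -0.06, for macrophage genes, from -0.02 to 0.04, and for thermogenic genes, from -0.04 to 0.02. No testis gene was measured with the floor at the 60th percentile. No paired analysis beyond the genotype term was possible because the labels carry no replicate numbers. Genes near the floor are known only by a bound.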
